A study of Mus musculus with 59 samples.

Results

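The transcripts described here are 174 noncoding genes of mouse embryonic stem cells that still carry the clone names of the RIKEN full-length cDNA collection. They were chosen from the 23974 gene symbols of a deposited RNA decay table by 3 rules: a RefSeq accession of the noncoding (NR_) type, a symbol ending in Rik, and, averaged over all 12 libraries, a value of 10 or more. Of 1196 RIKEN symbols with a noncoding accession, 1021 lay below that level. The gene 4930470H14Rik met the rules and 9030025P20Rik, which has only a coding accession, did not. Both were left out by name, and both were higher in the knockout at every time, with log2 changes of 2.48, 2.42 and 3.41 for 4930470H14Rik at 0, 4 and 8 h and adjusted p-values of at most 0.00022 (limma). The counts below therefore omit a strongly changed gene of the same kind. The members nearest the level were 4931402G19Rik, 1500011K16Rik and A330009N23Rik inside it, at means of 10.3, 10.4 and 10.6, and 2310039L15Rik, 4930404I05Rik and 2610306M01Rik outside it, at 9.52, 9.39 and 9.22.

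The cells were embryonic stem cells (ESCs) derived from BDF1 blastocysts and grown without differentiation in serum with LIF and the inhibitors CHIR99021 and PD0325901. The control was labelled wild type and the other line Zcchc8 KO, and both received actinomycin D, a drug that blocks transcription, at 5 µg/ml, with RNA taken at 0, 4 and 8 h. Each of the 6 groups held 2 libraries of ribosomal-RNA-depleted total RNA. Separate cultures or clones are not named for the replicates; the p-values therefore reflect how far these libraries spread, which may be technical. A value is a read count divided by 1 factor per library, and the depth was low, from 465324 to 1364523 counted reads a library and a median of 39.5 to 72.5 reads per member. Fewer cells and less RNA per cell cannot be told apart in such bulk samples. Zcchc8 itself read 59.3 and 77.5 in the 2 control libraries at 0 h and 25.3 and 5.29 in the 2 KO libraries. That was a log2 change of -2.42 (adjusted p = 0.033), while at 8 h the genotypes overlapped. Of 12 tested ESC marker genes none differed at 0 h, but 5 of 12 tested fibroblast markers (Vim, Thy1, Acta2, Cdh11 and Twist1) were higher in KO at 0 h. The summed level of the 17 fibroblast markers listed was 5346 and 8919 in control and 12758 and 16947 in KO at 0 h. In the same libraries the 6 neuroectoderm markers summed to 86.9 and 162 in control against 272 and 364 in KO. Of these 6, 3 were tested, and Sox1 and Tubb3 were called. Over all genes tested 4.23% were called higher at 0 h. With the libraries rescaled to equal composition (TMM), 4 fibroblast and 0 neuroectoderm markers were called higher at 0 h. The part of these marker differences in the differences below was not tested.

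Zcchc8 is the scaffold of the nuclear exosome targeting (NEXT) complex, in which Rbm7 binds RNA and the helicase Mtr4 (Skiv2l2 in the table) feeds it to the exosome, a 3′ to 5′ nuclease. NEXT is known for removing short unprocessed RNAs such as promoter upstream transcripts, which start beside a coding gene's promoter and run the other way, enhancer RNAs and introns. Long noncoding RNAs that are poorly spliced, short-lived or read away from coding promoters are thus candidate substrates, and RIKEN clones hold many of them. The comparisons ask which of the 174 stood higher or lower without Zcchc8 and how fast each was lost once transcription stopped.

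Most members lay beside or across a coding gene. Of the 166 placed on the GENCODE annotation (GRCm38), 110 overlapped exons of a coding gene on the other strand, 12 more started within 1000 bases of a coding start and read away from it, 9 lay within or across introns, 4 shared exons with a coding gene on the same strand and 31 were clear of coding genes. In all, 93 had a coding start within 1000 bases on the other strand. Of the genes tested over the whole table, 22.3% had coding exons on the other strand. The sources used here do not state whether counting used strand, so reads of a member and of its partner on the other strand cannot be told apart for the 110. RefSeq now files 164 of the 174 as lncRNA, 4 as protein coding and 6 as transcribed pseudogenes. Transcripts ran from 346 to 6190 bases with a median of 1659, and 32 had 1 exon.

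Most members start in CG-rich sequence. The promoter table of RefSeq (GRCm38.p6) held 133 members, and 67.7% of them had at least 8 CG pairs in the 300 bases around the start, against 49.0% of all promoters in the table. The TATAAA motif, searched on both strands, was in 3.01% of the members' windows and 14.2% of all. A polyadenylation hexamer (AATAAA or ATTAAA on the transcript strand) stood in the last 50 bases of 63.3% of the 166 placed members, against 31.0% of GENCODE lncRNA transcripts and 50.2% of coding ones. The ends of 6 members called higher in KO below are shown because the hexamer is the usual signal for cutting and tailing an RNA. They are the last bases of the GENCODE M21 transcript (GRCm38) with the hexamer in capitals, and 5 of the 6 have it. Among the 6, 4930578M01Rik, B930059L03Rik and 1700125G22Rik reached the level through KO alone, so a difference was built into their entry.
4930578M01Rik, chromosome 15: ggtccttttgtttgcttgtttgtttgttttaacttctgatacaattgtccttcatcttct
4930444M15Rik, chromosome 14: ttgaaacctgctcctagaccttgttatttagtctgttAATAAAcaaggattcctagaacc
A630089N07Rik, chromosome 16: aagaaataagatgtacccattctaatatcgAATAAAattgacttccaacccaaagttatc
1700125G22Rik, chromosome 3: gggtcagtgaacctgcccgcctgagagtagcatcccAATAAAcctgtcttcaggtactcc
1700065J11Rik, chromosome 6: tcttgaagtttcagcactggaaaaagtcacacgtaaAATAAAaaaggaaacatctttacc
B930059L03Rik, chromosome 12: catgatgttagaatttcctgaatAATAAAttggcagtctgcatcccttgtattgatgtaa

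Before actinomycin D, 7 members were higher in KO and none was lower. By edgeR on the recovered reads, with the deposited factors kept, 4 were higher and none lower, against 2.26% and 0.0288% of all genes. By DESeq2 3 were higher and 4 lower, against 1.57% and 0.642%. DESeq2 set its own factor for each library here and below, so it changed the scaling as well as the test. In limma without adjustment 34 were higher and 2 lower at p below 0.05, against 17% and 0.547% of all genes. The log2 changes are on the log2(value + 1) scale, which understates changes of low genes. Without control 0 h replicate 2, 53 were higher, and without KO 0 h replicate 2 only 4930444M15Rik and 4930578M01Rik were. Over all 6952 genes tested, 4.23% were called higher and 0.0719% lower, so the members' share, 7 of 174 or 4.02%, was near the background, as was their median log2 change of 0.46 beside 0.44 for all genes. The 7 were 4930578M01Rik, B930059L03Rik, 1500011K16Rik, D630045M09Rik, 4930444M15Rik, 9530080O11Rik and D030025P21Rik, and in each both KO libraries lay above both control libraries. That order held for 62 members at 0 h, against 37.3% of all genes tested, for 44 at 4 h, against 37.0%, and for 115 at 8 h, against 55.3%. In 24 members, 13.8%, KO lay above control at 1 time and below it at another, against 6.29% of all genes. Of the 24, 21 were on the other strand of coding exons, as were 110 of all 174 members. Of the 7, the 4 listed first had a control mean under 10 over all times and reached the level only through KO, as did 21 members in all, so a difference was built into their entry. Among the 153 members at the level in both genotypes 3 were called higher at 0 h, against 3.42% of such genes.

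The largest fitted change at 0 and 8 h was that of 4930578M01Rik, a 4-exon transcript on chromosome 15 whose nearest coding gene is Tuba1a. It read 0 and 3.23 in the 2 control libraries at 0 h and 58.9 and 98.7 in the KO libraries. At 4 h it read 1.46 and 0 in control against 14.6 and 39.7 in KO. At 8 h control held no read in either library, while KO read 26.8 and 78.1. The gene was thus near or at no signal in all 6 control libraries and present in all 6 KO libraries. The log2 changes were 5.23 ± 0.96 (SE), 4.01 ± 0.96 and 5.55 ± 0.96, with adjusted p-values of 0.00068, 0.028 and 0.00017. Since the control was empty at 8 h, the fold there is a bound: KO was at least 35.2-fold higher, with 3 reads per control library as the floor. Its neighbour Tuba1a, an alpha-tubulin gene, did not pass the test at any time, at log2 changes of 0.83, 0.33 and 0.62.

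The other member higher at all 3 times was 4930444M15Rik, a 4-exon transcript on chromosome 14 near Tsc22d1. At 0 h it read 32.9 and 100.1 in control and 333 and 347 in KO. At 4 h control read 21.8 and 17.8 and KO 74.6 and 91.1. At 8 h control read 8.11 and 24.4 and KO 60.6 and 99.5. The genotypes did not overlap at any time, and both fell, at slopes of -0.24 and -0.26 log2 units an hour. The log2 changes were 2.54 ± 0.50, 2.01 ± 0.50 and 2.37 ± 0.50 (adjusted p = 0.0014, 0.034 and 0.0021). Tsc22d1, a leucine-zipper transcription regulator, had log2 changes of 2.49, 1.70 and 2.95, of which only that at 8 h passed the test (adjusted p = 0.018). The promoters of these 2 genes are shown, with CG pairs in capitals, because they were the only members called at every time. They differ in CG content, with 11 pairs in the first and 2 in the second.
4930578M01Rik, GRCm38.p6 chr15:98985715-98986014, plus strand: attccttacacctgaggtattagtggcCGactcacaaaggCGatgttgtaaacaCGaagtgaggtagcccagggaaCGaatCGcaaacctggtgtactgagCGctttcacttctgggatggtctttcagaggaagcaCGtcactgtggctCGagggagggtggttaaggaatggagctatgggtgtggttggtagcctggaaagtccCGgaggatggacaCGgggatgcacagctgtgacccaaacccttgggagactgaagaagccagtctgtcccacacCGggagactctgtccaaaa
4930444M15Rik, GRCm38.p6 chr14:76520806-76521105, minus strand: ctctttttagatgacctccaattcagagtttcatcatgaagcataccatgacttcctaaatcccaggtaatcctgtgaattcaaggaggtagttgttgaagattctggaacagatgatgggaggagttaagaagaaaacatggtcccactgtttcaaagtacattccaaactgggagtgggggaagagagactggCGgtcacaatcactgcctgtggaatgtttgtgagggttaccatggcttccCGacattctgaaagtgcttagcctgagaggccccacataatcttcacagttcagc

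Of the other 5 members called at 0 h, none passed the test at 4 or 8 h. B930059L03Rik, a 1-exon transcript on chromosome 12 downstream of Ppp2r5c, read 2.63 and 3.23 in control and 23.6 and 98.7 in KO (log2 change 3.66 ± 0.87, adjusted p = 0.0090). By 4 h the genotypes overlapped, at 5.09 and 18.5 in control and 9.53 and 18.4 in KO. 1500011K16Rik, now Mtln, which encodes the mitochondrial micropeptide mitoregulin, read 5.27 and 0 in control and 25.3 and 24.7 in KO at 0 h (log2 change 3.37 ± 0.98, adjusted p = 0.038). It too overlapped at 4 h. D630045M09Rik, a 3-exon transcript now named Eprn, read 6.58 and 6.46 against 60.6 and 44.1 at 0 h (log2 change 2.81 ± 0.86, adjusted p = 0.0497). At 4 h its order was the other way, with 10.2 and 10.8 in control above 2.24 and 7.75 in KO. The other 2 were on the other strand of coding exons. 9530080O11Rik, across the microtubule linker gene Hook1, read 36.9 and 42.0 in control and 129.7 and 171 in KO, a log2 change of 1.89 ± 0.45 (adjusted p = 0.010). D030025P21Rik, across Ltbp2, read 113 and 255 against 382 and 510, a log2 change of 1.37 ± 0.41 (adjusted p = 0.046). The partner Ltbp2, a matrix protein that binds fibrillin, had a log2 change of 1.05 and did not pass the test (adjusted p = 0.14).

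**Figure D1:**
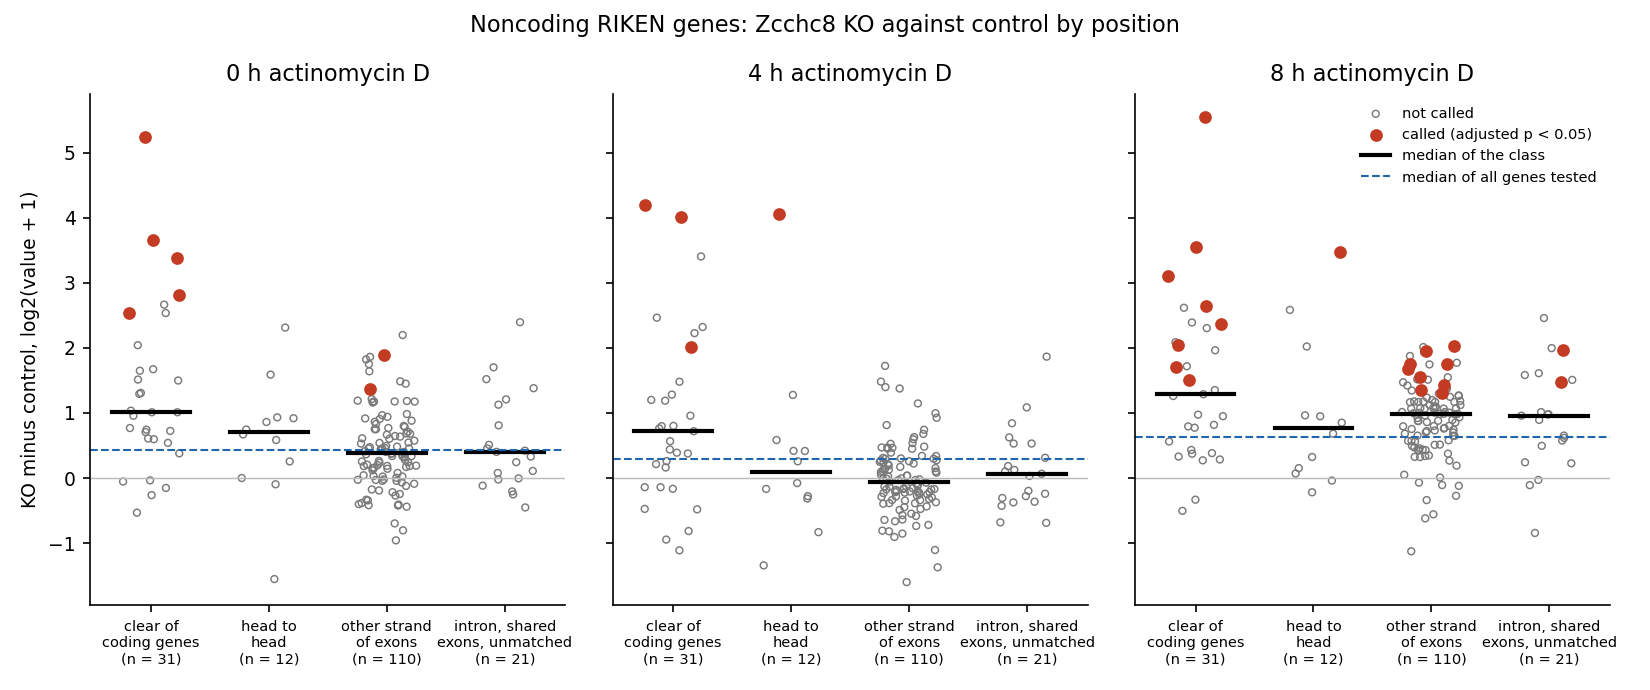
KO minus control on the log2(value + 1) scale at 0, 4 and 8 h for each of the 174 noncoding RIKEN genes (circles), by position relative to coding genes. Filled circles passed the test at an adjusted p below 0.05, black bars are class medians and the dashed line is the median of all 6952 genes tested; of the 5 clear genes called at 0 h, 4 reached the level of 10 through KO alone.

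The calls are given next by position, and the difference between the classes was not tested. Of the 31 clear of coding genes, 5 were higher in KO at 0 h (16.1%), 3 at 4 h (9.68%) and 8 at 8 h (25.8%). Of these 31, 13 had reached the level through KO alone, and they held 4, 2 and 3 of those calls, so the shares are given as a description only. The 18 clear members at the level in both genotypes held 1 call at 0 h, 1 at 4 h and 5 at 8 h. Of the 110 on the other strand of coding exons, 2 were higher at 0 h (1.82%), none at 4 h and 9 at 8 h (8.18%), all of them among the 107 at the level in both genotypes. Without adjustment 2 of the 110 were higher and 3 lower in limma at 4 h, against 4.22% and 1.43% of the 1539 genes tested that had coding exons on the other strand. Among all genes tested, those with no coding exons on the other strand were called higher in 4.87%, 0.8% and 4.32% and those with such exons in 2.08%, 0.52% and 6.76% at the 3 times. The medians of the clear members were 1.01, 0.72 and 1.29, and those of the 110 were 0.38, -0.06 and 0.98. The clear members were also lower in level, with a median mean value of 18.8 against 88.8, and whether the level sets their calls was not tested. The plot of changes by position shows both groups at the 3 times.

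At 4 h of actinomycin D, 4 members were higher in KO and none was lower, against 0.748% and 0.0% of all genes. The members' median log2 change was 0.03, below the 0.29 of all genes. By edgeR 5 were higher and 1 lower, against 1.04% and 0.0288% of all genes. By DESeq2 2 were higher and 4 lower, against 1.69% and 0.854%, and the limma test without adjustment put 15 higher and 4 lower at p below 0.05, against 8.9% and 0.834%. The calls, all named here although the first 2 averaged under 20 in KO, were 5330411J11Rik, 1700125G22Rik, 4930578M01Rik and 4930444M15Rik, the first 3 of which reached the level through KO alone. Among the 153 members at the level in both genotypes 1 was called, against 0.613% of such genes. 1700125G22Rik, 148 bases from the start of the cytokinesis gene Ect2 and read away from it, read 10.5 and 16.2 in control and 70.7 and 67.0 in KO at 0 h. At 4 h control held no read and KO read 10.1 and 24.2. At 8 h control again held none and KO read 8.92 and 11.3. The control was thus empty in 4 libraries in which KO kept a signal, and KO was at least 7.62-fold higher at 4 h and at least 6.81-fold higher at 8 h, by the same floor (adjusted p = 0.019 and 0.020). At 0 h the groups did not overlap either, but the log2 change of 2.31 ± 0.94 did not pass the test (adjusted p = 0.16). 5330411J11Rik, a 3-exon transcript on chromosome 2 near Pkp4, held no read in control at 4 h and read 20.7 and 14.5 in KO, at least 7.84-fold higher (adjusted p = 0.033). Leaving out any 1 of the 4 libraries of that time ended all 4 calls.

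**Figure D2:**
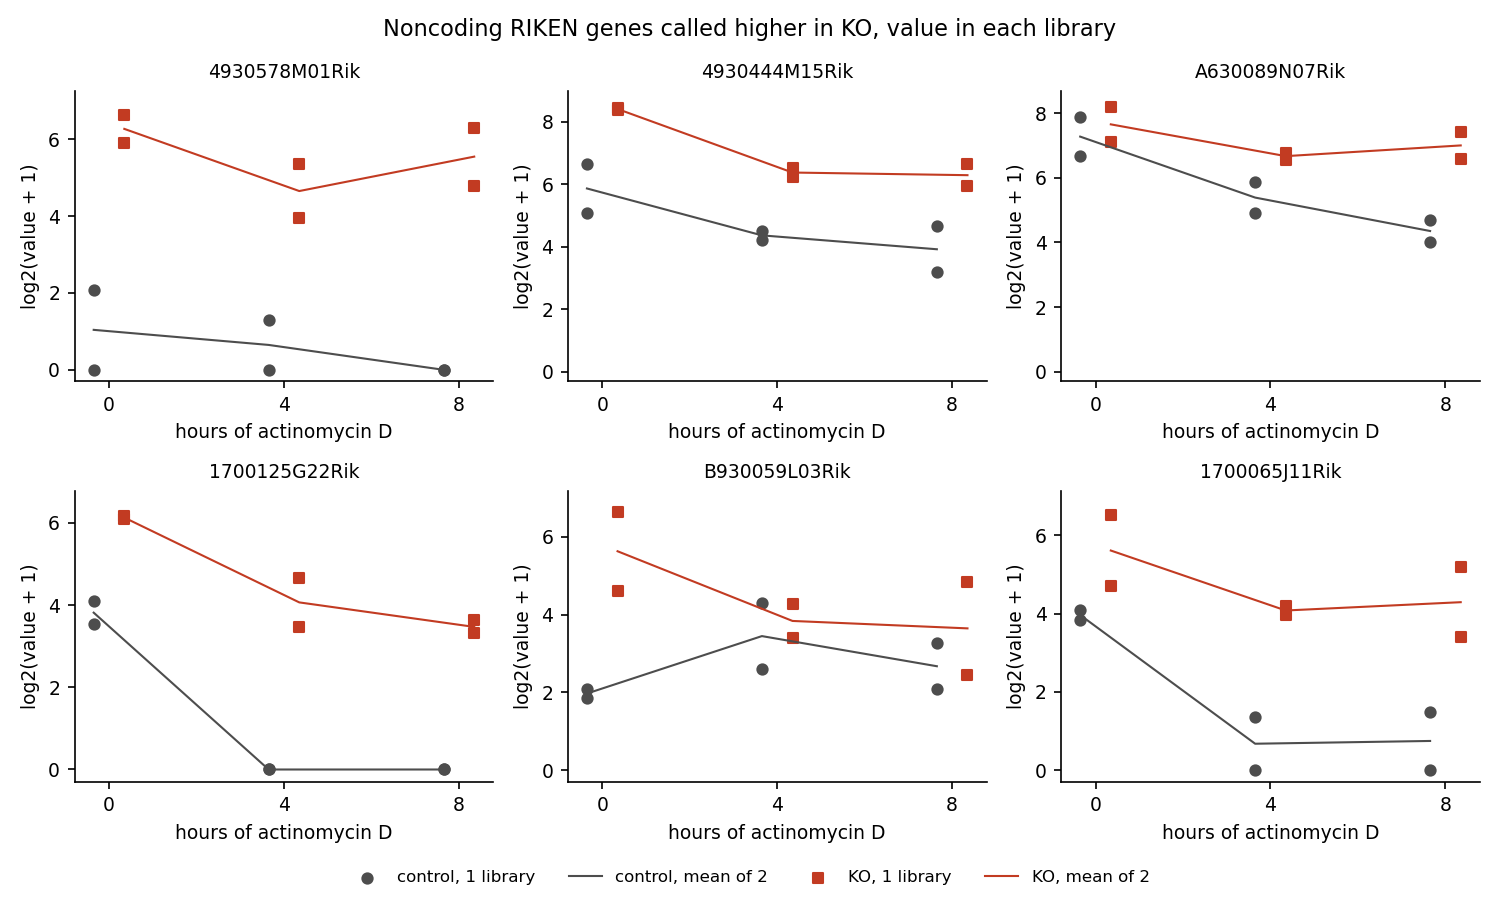
Value of 6 noncoding RIKEN genes in each library, as log2(value + 1), against hours of actinomycin D; grey circles are control libraries, red squares KO libraries and lines join the means of 2. The KO libraries of 4930578M01Rik and 4930444M15Rik lie above the control libraries at all 3 times, and 1700125G22Rik is at 0 in control at 4 and 8 h.

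At 8 h, 20 members were higher in KO and none was lower in limma, and without adjustment 81 were higher and none lower, against 22.4% and 0.331% of all genes. By edgeR 42 were higher and none lower, against 8.37% and 0.0144% of all genes, and by DESeq2 8 and none, against 2.19% and 0.345%. All genes tested gave 4.88% higher and 0.0144% lower, and the members' share was 11.5%. Their median log2 change was 0.97 beside 0.63 for all genes. Other genes with noncoding rows alone had 14.3% called and a median of 0.93, and RIKEN genes with coding rows alone 5.88% and 0.72. Of the 153 members at the level in both genotypes 16 were called, against 4.87% of such genes. The other 4 calls had reached the level through KO alone, so a difference was built into their entry. Among these 4 were 4930578M01Rik and 1700125G22Rik. The count moved with single libraries. Replicate 2 of KO 8 h was above replicate 1 in 157 members, by a median of 1.07 on the log2 scale, against 0.10 over all genes tested. Without it 2 members were called and the members' median was 0.47 beside 0.59 for all genes, and without replicate 1 the count was 71. Without control 8 h replicate 1 it was 3, without control 8 h replicate 2 it was 8, and without either control library of 0 h it was 64.

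The plot of library medians shows the same. In KO 8 h replicate 2 the members' median stood 1.14 above that of all genes on the log2 scale, and in replicate 1 0.31 above. Control 0 h replicate 2 was the next highest at 1.06, with 0.51 in its replicate 1. The gap between the KO 8 h replicates was 1.11 for members on the other strand of coding exons and 0.80 for the clear ones. Over all genes tested it was 0.55 for genes with coding exons on the other strand and -0.01 for genes without. The members' share of all counted signal was 4.41% in that library and between 2.57% and 3.59% in the other 11.

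**Figure D3:**
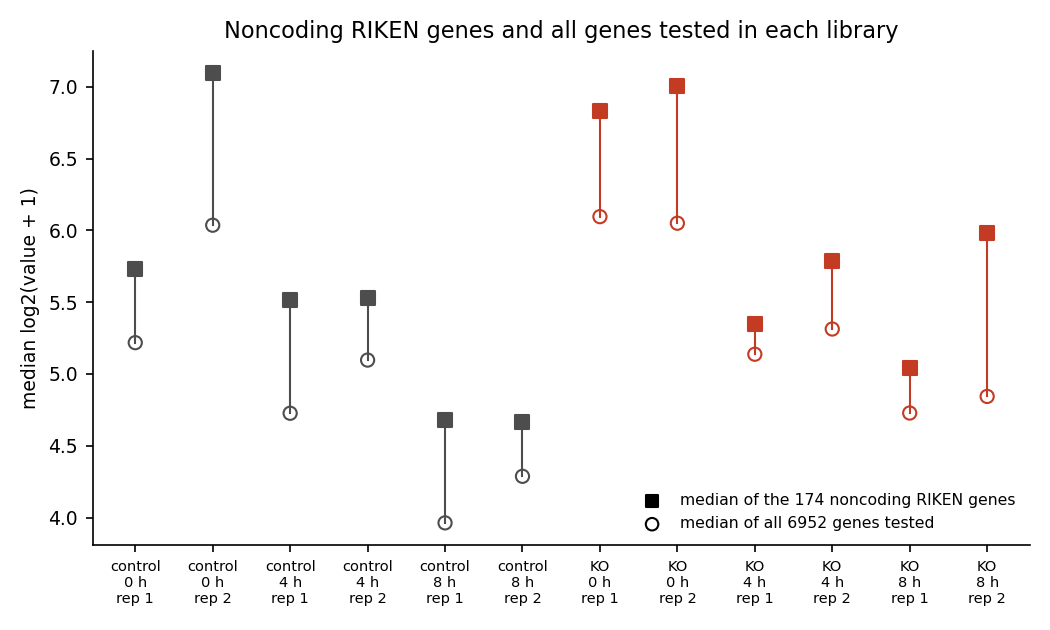
Median log2(value + 1) of the 174 noncoding RIKEN genes (squares) and of all 6952 genes tested (open circles) in each of the 12 libraries. The distance between both is 1.14 in KO 8 h replicate 2 and 1.06 in control 0 h replicate 2, and at most 0.96 in the other 10.

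The 2 members called at 8 h also without that library were 4930578M01Rik and A630089N07Rik. A630089N07Rik, a 5-exon transcript on chromosome 16 that GENCODE files as coding, read 100.1 and 236 in control and 291 and 138 in KO at 0 h, where the genotypes overlapped. At 4 h control read 29.1 and 57.2 and KO 93.6 and 108.5. At 8 h control read 15.1 and 24.8 and KO 95.6 and 169. The libraries of the genotypes thus overlapped at 0 h and were apart at 4 and 8 h, and only the change at 8 h passed the test. The log2 changes of A630089N07Rik were 0.38 ± 0.46, 1.28 ± 0.46 and 2.65 ± 0.46 (adjusted p = 0.74, 0.25 and 0.00020 in limma). It kept 11.9% of its 0 h value in control at 8 h and 61.6% in KO. Its slopes differed by 0.28 log2 units an hour (unadjusted p = 0.0024 in limma), which did not pass the adjustment over all genes.

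The other named members of the 8 h list were mostly low in control. 1700065J11Rik, a 3-exon transcript on chromosome 6, read 0 and 1.81 in control at 8 h and 9.56 and 35.3 in KO (log2 change 3.55 ± 0.91, adjusted p = 0.015). 2610001J05Rik, a chromosome 6 gene now filed as protein coding, read 4.86 and 0 against 14.0 and 27.7 (3.10 ± 0.81, adjusted p = 0.016). Both read above control in each KO library at 8 h. Of the 20 calls, 4 had reached the level through KO alone, and 3 of those were clear of coding genes, as these 2 genes are. For members this low in control a difference may be built into the entry, so their values are given as a description only. A930004D18Rik, next to Skida1 on chromosome 2, read 10.8 and 12.6 in control and 41.4 and 64.2 in KO (2.05 ± 0.47, adjusted p = 0.0058). D030047H15Rik, across the chloride channel gene Ttyh1 and 113 bases from the start of Leng8, read 4.86 and 4.52 against 13.4 and 36.5 (2.03 ± 0.61, adjusted p = 0.043). A230070E04Rik read 33 and 44.3 against 102 and 228 (1.97 ± 0.44, adjusted p = 0.0047). In these 3 the KO libraries were also both above control at 0 h, where none passed the test. The smallest log2 change among the 20 calls was that of E130317F20Rik, at 1.30, and A130077B15Rik stood at 1.5.

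No member passed the test for a lower level in KO at any time, so the 3 with the smallest p in each comparison are given by value. G530011O06Rik, 534 bases from the start of the ubiquitin ligase gene Mid1, read 161 and 394 in control and 87.6 and 82.9 in KO at 0 h (log2 change -1.55, adjusted p = 0.24). 4932702P03Rik, across the GABA-degrading enzyme gene Aldh5a1, read 92.2 and 178 against 65.7 and 65.2 (-0.96, adjusted p = 0.24). A930012L18Rik, across the colorectal tumour suppressor gene Mcc, read 187 and 436 against 148 and 180 at 0 h and 212 and 196 against 60.5 and 73.6 at 4 h (-1.60, adjusted p = 0.073). In each of these 4 comparisons both KO libraries were below both control libraries. At 0 h 4 of 174 members showed that separation, against 3.28% of all genes. At 4 h 40 of 174 did, a larger share than the 8.7% of all genes. Of those 40, 33 were on the other strand of coding exons, as were 110 of all 174 members. Over the 1539 genes tested with such exons, 217 showed it at 4 h. At 4 h 1500004A13Rik and E130215H24Rik had log2 changes of -0.94 and -1.37 (adjusted p = 0.46 and 0.47). At 8 h 4930465K10Rik, 3200001D21Rik and 9330151L19Rik had log2 changes of -1.12, -0.84 and -0.62 (adjusted p = 0.24 to 0.57). With the libraries rescaled to equal composition by TMM, which moved the median of all genes to 0.01 at 0 h and -0.00 at 4 h, 4932702P03Rik at 0 h (-1.38, adjusted p = 0.0496) and A930012L18Rik at 4 h (-1.90, adjusted p = 0.0093) passed.

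The same rescaling took the medians of all genes from 0.44, 0.29 and 0.63 to near 0, and the members' medians became 0.04, -0.26 and 0.33. The counts of members higher and lower then were 2 and 1 at 0 h, 2 and 1 at 4 h and 4 and 0 at 8 h, against 1.35% and 0.388%, 0.69% and 0.245%, and 1.44% and 0.273% of all genes. Those higher were 4930444M15Rik at all 3 times, 4930578M01Rik at 0 and 8 h, 1700125G22Rik at 4 and 8 h, and A630089N07Rik at 8 h. Relative to the other genes, 26 members had both KO libraries above control at 4 h and 73 had both below, against 24.5% and 24.7% of all genes. Of those 73, 59 were on the other strand of coding exons, as were 110 of all 174 members. Over all 1539 genes tested with coding exons on the other strand, 510 had both KO libraries below control at 4 h after TMM.

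After actinomycin D most members fell. In control 117 of 174 (67.2%) had a falling slope and none rose, against 52.1% falling and 0.446% rising over all genes. In KO 69 (39.7%) fell and none rose, against 37.4% and 0.0288%. The median slopes were -0.20 log2 units an hour in control and -0.16 in KO, beside -0.17 and -0.14 over all genes. The lists shared 60 members, 51.3% of the control list and 87% of the KO list. After TMM, which removes any change shared by most genes, 20 fell and 7 rose in control against 8.88% and 8.26% of all genes. In KO 5 fell and 6 rose after TMM, against 3.77% and 2.76%. What the deposited scaling rests on is not stated, so how much of the shared change is RNA loss cannot be told. In control 60 fell without control 0 h replicate 2 and 72 without control 8 h replicate 1. In KO 27 fell without KO 0 h replicate 1 and 24 without replicate 2, and 33 without KO 8 h replicate 1 and 104 without replicate 2.

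Among the 111 members with a control mean of at least 50 at 0 h, the share left at 8 h ran from 1.79% to 113% with a median of 27.6%. Of them 10 kept less than 10%. Among the 130 such members in KO the share ran from 3.89% to 135% with a median of 42.6%, and 4 kept less than 10%. In both genotypes at that level were 108 members, and 99 of them kept more in KO than in control at 8 h (91.7%, against 76.4% of the 3285 such genes). At 4 h it was 28 (25.9%, against 42.8%). The order of the genotypes was thus opposite at both times, and control 0 h replicate 2 and KO 8 h replicate 2, which stand apart above, enter these shares.

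**Figure D4:**
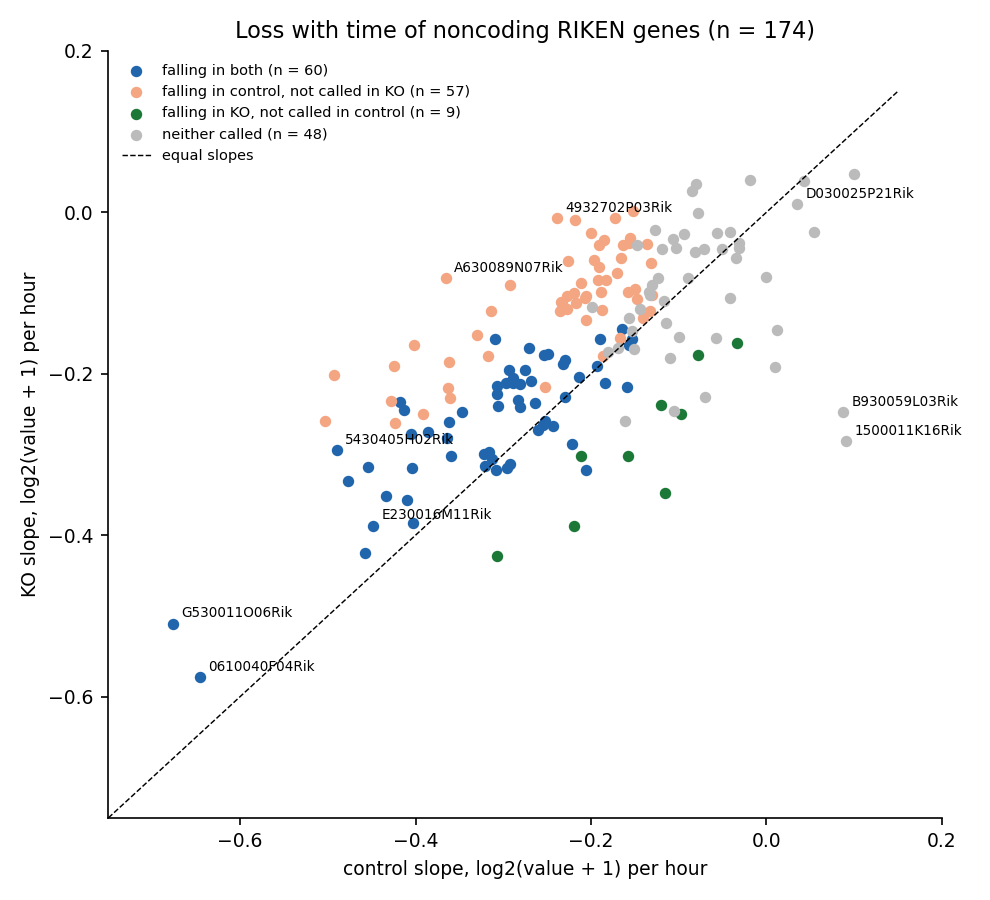
Slope of each of the 174 noncoding RIKEN genes over 0, 4 and 8 h, in log2(value + 1) units per hour, in control (horizontal) and KO (vertical); colours give the genotype in which the fall passed the test and the dashed line marks equal slopes. The 60 genes falling in both lie at the lower left, led by G530011O06Rik and 0610040F04Rik.

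The fastest losses in both genotypes were those of G530011O06Rik and 0610040F04Rik. G530011O06Rik went from 161 and 394 at 0 h to 3.64 and 18.5 at 4 h and 5.40 and 4.52 at 8 h in control, a slope of -0.68 ± 0.15 (adjusted p = 0.0025). In KO it went from 87.6 and 82.9 to 6.17 and 0.969 and then 4.46 and 3.78, a slope of -0.51 ± 0.15 (adjusted p = 0.019). In both genotypes it was near its lowest level by 4 h. 0610040F04Rik, 7 exons across the circadian repressor gene Bhlhe40, went from 216 and 772 to 45.1 and 44.8 and then 9.19 and 11.7 in control (-0.65 ± 0.09, adjusted p = 3.5e-05). In KO it went from 394 and 517 to 19.6 and 32.0 and then 15.3 and 20.2 (-0.58 ± 0.09, adjusted p = 0.00022). Bhlhe40 fell with it, from 73.8 and 58.1 to 2.70 and 5.87 in control and from 99.4 and 97.0 to 1.27 and 10.1 in KO. E230016M11Rik, across the stress gene Gadd45a, kept 7.65% in control and 12.7% in KO at 8 h. B430010I23Rik, across Mtus1, kept 6.67% and 20.2%.

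5430405H02Rik, across the repressor gene Tgif2, was also on the fast list of control. It read 107 and 336 at 0 h, 63.3 and 81.9 at 4 h and 10.3 and 13.1 at 8 h in control (slope -0.49 ± 0.06, adjusted p = 3.0e-07). In KO it read 199 and 238, then 61.7 and 65.9, then 31.2 and 55.4 (-0.29 ± 0.06, adjusted p = 0.00058). The genotypes overlapped at 0 h and were apart at 8 h, and the slopes differed by 0.20 (unadjusted p = 0.028), which did not pass the adjustment. In KO the fastest list also held G630025P09Rik, with 12.4% left, and B330016D10Rik, with 8.73% left.

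At the slow end D030025P21Rik did not fall. It read 113 and 255 at 0 h, 170.3 and 221 at 4 h and 187 and 229 at 8 h in control. In KO it read 382 and 510, then 352 and 527, then 304 and 719. On the deposited scale both genotypes held their level, KO the higher, at slopes of 0.04 ± 0.05 and 0.01 ± 0.05. With TMM this gene was called rising in both genotypes. Its partner Ltbp2 also held its level, at 51.4 and 71.1 at 0 h and 64.9 and 68.2 at 8 h in control. 1700018L02Rik, across the mitochondrial adenylate kinase gene Ak3, kept 79.6% in control and 135% in KO. 0610039K10Rik, across Serinc3, kept 64.9% and 97.7%. The others of the slow lists were 9130024F11Rik, 4930528A17Rik and B430319G15Rik in control, and A330041J22Rik, E030024N20Rik, A230056P14Rik and 4932702P03Rik in KO. None of these passed the test for a fall in the genotype named. With TMM, 1700018L02Rik was called rising in both genotypes. So were 0610039K10Rik, 4930528A17Rik and B430319G15Rik in control and A330041J22Rik in KO.

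**Figure D5:**
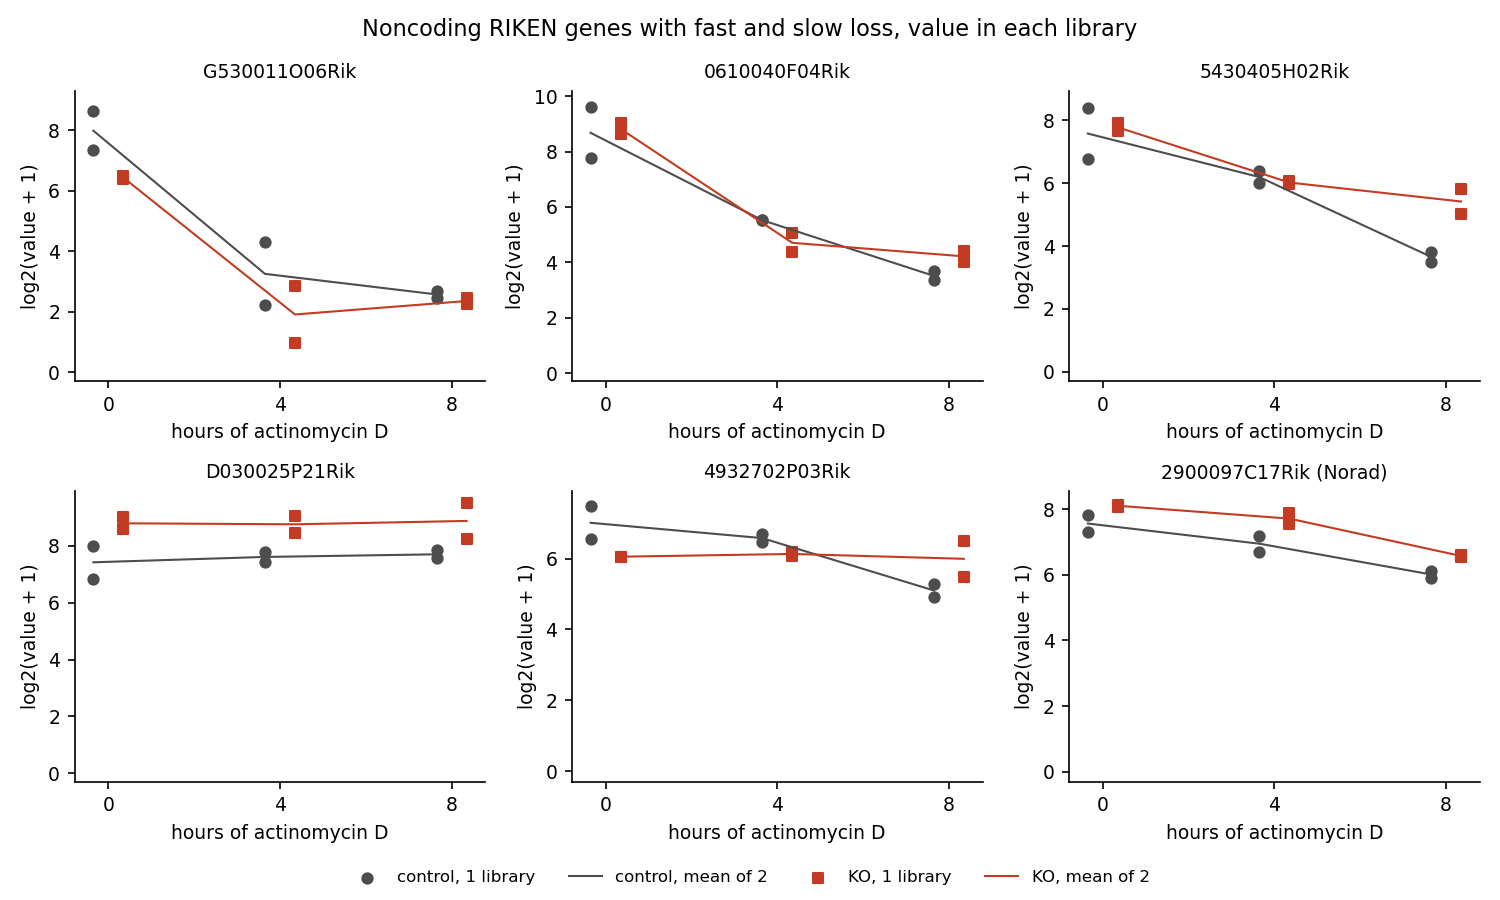
Value of 6 noncoding RIKEN genes in each library, as log2(value + 1), against hours of actinomycin D; grey circles are control libraries, red squares KO libraries and lines join the means of 2. G530011O06Rik and 0610040F04Rik fall in both genotypes, D030025P21Rik holds its level in both and 4932702P03Rik holds its level in KO.

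No member's slope differed between genotypes past the adjustment, by limma, edgeR or DESeq2. Of all 6952 genes 0.0% did by limma and edgeR, and 0.0575% (4 genes) did by DESeq2. Without adjustment, 7 members had a higher slope in KO and 1 a lower one at p below 0.05 in limma, against 3.21% and 1.83% of all genes. The smallest p-values were those of A630089N07Rik, 4932702P03Rik and A130077B15Rik among slower losses in KO. 4932702P03Rik read 92.2 and 178, then 102.6 and 87.3, then 37.8 and 29.4 in control and 65.7 and 65.2, then 66.7 and 71.7, then 44.0 and 89.4 in KO (difference 0.23, unadjusted p = 0.0053). Control was above KO at 0 h and below it at 8 h. A130077B15Rik kept 16.5% in control and 50.5% in KO (difference 0.19, unadjusted p = 0.020). Among faster losses in KO the smallest were those of B930059L03Rik, 1500011K16Rik and A230020J21Rik (unadjusted p = 0.045, 0.053 and 0.086), and B930059L03Rik and 1500011K16Rik were at or under 5.27 in control at 0 h.

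The members with the largest values all overlapped coding exons on the other strand. The 10 largest held 36.8% of the members' summed mean, and all 10 were of that kind. The first was E130317F20Rik, 67 bases from the start of the splicing factor gene Ptbp1, with a mean of 1615. It read 1054 and 2755 in control and 2162 and 2428 in KO at 0 h, and 640 and 719 against 1142 and 2460 at 8 h. Ptbp1 itself was listed at 0 in all 6 control libraries and at most 6.74 in KO. In this table genes with several RefSeq transcripts were often empty: 49.7% of coding genes with 2 or more rows held no read, against 26% of those with 1 row. The same held for noncoding RIKEN genes, where 9.72% of symbols with 2 or more rows reached the level and 15.3% of those with 1. So a partner at 0 cannot be read as silent. 2610020C07Rik across the translation termination gene Gspt1, 4930513N10Rik across the deadenylase scaffold gene Cnot1 and 9130221H12Rik across the kinase gene Gsk3a, the next by value, did not pass the test. They kept 30.7%, 30.9% and 25.9% in control at 8 h and 78.4%, 67.7% and 56.8% in KO. Of the other large ones, 1700007J10Rik, 4933408J17Rik and 4930579G18Rik kept 60.8%, 53.5% and 32.3% in control and 84.4%, 85.7% and 63.3% in KO. KO 8 h replicate 2, the library that stood apart, enters each of these KO shares. In members on the other strand of coding exons it stood above replicate 1 by a median of 1.11 on the log2 scale. Per kilobase of transcript the members' mean values ran from 2.67 to 1037 with a median of 43.1.

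Of the members 13 have been renamed since the table was made, and a few of those, picked after their values were seen, have a described role. 2900097C17Rik is Norad, a cytoplasmic RNA that binds Pumilio proteins. It read 155 and 226 in control and 266 and 280 in KO at 0 h, and 58.9 and 68.2 against 96.3 and 91.9 at 8 h. KO was above control in all pairs, yet at log2 changes of 0.54, 0.76 and 0.56 none passed the test, and 33.3% and 34.4% were left at 8 h. C230091D08Rik is part of Snhg14, the RNA that silences Ube3a in neurons. It read 489 and 1280 in control and 628 and 555 in KO at 0 h, and 137 and 146 against 159 and 382 at 8 h (slopes -0.31 and -0.16, difference unadjusted p = 0.057). 4930414L22Rik is Particl, from the promoter of the methionine adenosyltransferase gene Mat2a. It fell in both genotypes, to 19.1% and 26.7%, and its log2 change at 8 h was 1.20 (adjusted p = 0.063). Mat2a had log2 changes of 1.03, 0.66 and 0.60 and did not pass the test. 1810026B05Rik is Chaserr, which restrains its neighbour Chd2. It read 10.5 and 9.69 against 26.9 and 35.3 at 0 h (log2 change 1.52, adjusted p = 0.28). 2410007B07Rik is Platr10, named for its association with pluripotency, with log2 changes of 0.60, 0.21 and 0.79, and none passed. 2410006H16Rik, the small nucleolar RNA host Snhg29, had log2 changes of 0.71, 0.44 and 0.77 and kept 28.5% in control and 36.1% in KO.

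Of the NEXT and exosome adaptor list, 7 of 11 genes were tested, and Zcchc8 alone was called. Skiv2l2, the helicase, read 216 and 388 in control and 273 and 413 in KO at 0 h and did not pass the test at any time. Rbm7, with 2 rows, was listed at 0 in all 12 libraries, as were many genes with several rows, so its level cannot be read from this table. Of 14 exosome genes 9 were tested and none was called between genotypes, with a median log2 change of 0.43 at 0 h. Of 16 listed nuclear long noncoding RNAs 9 were tested, and 2 were higher in KO at 0 h (Tsix and Nespas), 1 at 4 h and 1 at 8 h (Kcnq1ot1 at both), with none lower.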

How the data were processed

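Ribosomal-RNA-depleted total RNA of 12 libraries was analysed, and the other 47 of the 59 samples were not analysed here. The deposited values are a signal, read counts scaled by the authors with a single factor for each library; TopHat2 2.1.1, HTSeq 0.6.0, DESeq2 and build mm9 are named per the submitters' processing notes. What the scaling rests on, and the strand setting, the sources used here do not state. ERCC spike-in was added per the labels' protocols, and the table as used held 0 spike-in rows. Of 33896 rows 978 were repeats and were dropped. A member's value is the sum of its noncoding rows with a mean of at least 10. Any other gene is the sum of all its remaining rows. All values (100.0%) were whole reads within 0.001 reads, which gave the depth per library.

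Genes with a mean of at least 10 were tested with limma 3.58.1 (R 4.3.3) on log2(value + 1). A fit of the 6 group means gave the contrasts of genotype at each time. A separate fit, with time in hours as a line in each genotype, gave the slopes and their difference. Benjamini-Hochberg adjustment ran over all 6952 genes and calls are below 0.05. Alternatives were TMM, edgeR 4.0.16 and DESeq2 1.42.0 on recovered reads, and a pseudocount of 5. Others were no filter, the compared libraries alone, a replicate block, all rows of a gene and each library left out. The edgeR fit kept the deposited factors, while DESeq2 replaced them with its own, a change of scaling as with TMM. The fits were tested on simulated data. Named members are, per comparison and direction, the 8 called ones that changed most, if the higher group averaged 20 or more and the groups did not overlap, or the 3 with the smallest p where none was called; the 6 fastest and 6 slowest slopes per genotype from a 0 h mean of at least 50; the 8 largest values; the neighbours of the level; and, of a short list of RIKEN genes with a known role, the 1 present. Other renamed members were picked after their values were seen. The members and lists were chosen with earlier results of these data known. Positions and transcript ends come from GENCODE M21 and promoters and biotypes from RefSeq, both on GRCm38, matched by accession or symbol, with no coordinates taken from mm9. Depth limits low genes: the floor of 3 reads per library covers counting error only. Some members' neighbouring genes, and 1 member of the fast list, are not reported here.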

Additional observations from a re-analysis of the deposited data

Results flagged for a closer look

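In 24 of the 174 members both KO libraries lay above both control libraries at 1 time and below them at another, and the 9 of these that the report names for other reasons are given here. Whether the difference changed between those times was not tested. All values are KO minus control on the log2(value + 1) scale. D630045M09Rik stood at 2.81 at 0 h, -1.11 at 4 h and 0.95 at 8 h. E130215H24Rik, across the acetyl-CoA synthetase gene Acss1, stood at 0.77, -1.37 and 0.74. 4932702P03Rik stood at -0.96, -0.45 and 0.89. 9130024F11Rik stood at 1.21 at 0 h and -0.58 at 4 h. Lower at 4 h and higher at 8 h were 0610040F04Rik (-0.82 and 0.70), 2610020C07Rik (-0.39 and 1.01), 4930513N10Rik (-0.30 and 1.08) and 9130221H12Rik (-0.29 and 1.01). 9330151L19Rik went the other way, from 0.30 at 4 h to -0.62 at 8 h. Of the 9, 8 overlapped coding exons on the other strand, as did 110 of all 174 members. KO 8 h replicate 2, the library that stood apart, enters each value at 8 h.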

How the results depend on the processing

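The counts of called members depended on the scaling, the test and single libraries. The causes were not tested. Against 7 higher and 0 lower at 0 h, TMM gave 2 and 1, edgeR 4 higher, DESeq2 3 and 4, a pseudocount of 5 gave 17 higher, no filter 4, the compared libraries alone 2, and leaving out 1 library 2 to 53 higher and 0 to 1 lower. Against 4 and 0 at 4 h, TMM gave 2 and 1, edgeR 5 and 1, and DESeq2 2 and 4. A pseudocount of 5 gave 2 higher at 4 h, no filter 0, and the compared libraries alone 9 and 1. Against 20 higher at 8 h, TMM gave 4, edgeR 42, DESeq2 8, no filter 5, and leaving out 1 library 2 to 71. Falling members in control, 117, became 20 with TMM, 27 with DESeq2 and 60 to 136 with 1 library left out. Those in KO, 69, became 5, 9 and 24 to 104. No setting called a member lower at 8 h or a difference of slopes; the compared libraries alone were not run for the latter.

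The replicate block gave 14 higher at 0 h, 55 higher at 8 h and no difference of slopes. At 4 h it kept all 4 higher calls and gave 1 lower. The differences between replicates correlated weakly from group to group, between -0.070 and 0.117 over the 15 pairs of groups. Counting error at this depth enters these values, so they cannot decide whether same-numbered libraries share a culture or batch. 4930578M01Rik at 0 and 8 h, 4930444M15Rik at 0 h and A630089N07Rik at 8 h were called under all 20 alternatives.

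Slopes near 0 changed sign (log2 units an hour). With TMM and DESeq2 the control slopes were 0.154 and 0.147 for 1700018L02Rik, 0.139 and 0.136 for 9130024F11Rik, 0.134 and 0.127 for 4930528A17Rik, 0.126 and 0.115 for B430319G15Rik, and 0.120 and 0.112 for 0610039K10Rik. With TMM, edgeR and DESeq2 the KO slopes were 0.144, 0.00085 and 0.142 for A230056P14Rik and 0.137, 0.00030 and 0.140 for 4932702P03Rik. With 1 library left out, control slopes ran from -0.029 to 0.096 for D030025P21Rik, -0.121 to 0.050 for 1700018L02Rik, -0.083 to 0.031 for 9130024F11Rik, -0.126 to 0.022 for 4930528A17Rik, -0.148 to 0.030 for B430319G15Rik and -0.144 to 0.011 for 0610039K10Rik. KO slopes ran from -0.026 to 0.099 for 1700018L02Rik, -0.047 to 0.082 for A330041J22Rik, -0.059 to 0.074 for D030025P21Rik, -0.035 to 0.039 for E030024N20Rik, -0.042 to 0.031 for A230056P14Rik and -0.058 to 0.050 for 4932702P03Rik. The log2 change of 4930465K10Rik at 8 h ran from -2.29 to 0.036. With a median of 39.5 to 72.5 reads per member, low members rest on few reads.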
